A study of Mus musculus with 27 samples.

Results

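Contact maps of normal mouse testis at 2 captured loci are described here, from the 3 capture Hi-C libraries whose genotype label is wild type, out of 27 samples of the series (their titles also carry the letters hom, and the genotype label was followed). The libraries are called WT1, WT2 and WT3 after their replicate numbers. Capture Hi-C joins DNA ends that lay close together in the nucleus, uses probes to enrich products of selected loci, and counts each joined pair as a contact. The study deleted a domain boundary on chromosome 4 with CRISPR-Cas9 and examined testis. The wild-type animals carry none of the edited alleles per their labels, and their strain, age and breeding are not given in the sources used here. Frozen testis was lysed whole, so each map averages all germ cells and somatic cells of the organ. In such bulk tissue a weak contact in every cell and a strong contact in few cells cannot be told apart.

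The genome is folded into topologically associating domains, stretches of chromosome that contact themselves more often than their neighbours. The borders between them, often bound by the protein CTCF and cohesin, are regions that contacts tend not to cross. Cohesin is thought to extrude a loop of DNA until it meets CTCF, which leaves strong contacts between the ends of a domain and few contacts across a border. Testis is unusual in that meiotic cells and spermatids carry chromatin that is largely reorganised.

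The first locus, the chr4 core, runs from 107.11 to 107.96 Mb of chromosome 4 (mm10, 85 bins of 10 kb). It holds 16 protein-coding genes in full or in part and the boundary interval, 3 bins from 107.71 to 107.74 Mb around chr4:107720001-107730000. The interval lies inside the gene body of the long non-coding RNA 1700047F07Rik, between Dmrtb1 on the left and Lrp8 on the right. The second locus, the chr2 core at chr2:115200001-117080000 (188 bins), holds 3 coding genes, BC052040, Meis2 and Tmco5, and a long stretch without a coding gene between Meis2 and Tmco5.

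The libraries held 6095669, 6937506 and 7321442 contacts, of which 82.1% to 82.6% joined bins of the same chromosome. Pairs of bins at least 20 kb apart held 217425, 362387 and 281080 contacts in the chr4 core and 685142, 743300 and 834024 in the chr2 core. WT2 stood apart in how these were divided: its ratio of chr4 to chr2 core contacts was 0.592, against 0.389 in WT1 and 0.409 in WT3. Its profile of contacts per bin on chr4 was also less like the others, with a correlation over 85 bins of 0.823 with WT1 and 0.879 with WT3, against 0.985 between WT1 and WT3. Values without WT2 are therefore given for the rank of the boundary, the counts of pairs and the slopes with distance. The tissue label could not be checked against marker genes, since contacts of DNA carry no RNA level. The genotype label could be checked only in part. The 3 bins of the interval held 0.684 to 1.12 times the contacts of the median chr4 bin, so the interval was present in each library. Its presence alone does not tell wild type from an animal with 1 deleted copy.

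Contacts were compared with the number expected in the same library from the distance between 2 bins and from how many contacts each bin makes in all, here called its visibility. The insulation score of a bin is the log2 ratio of observed to expected contacts that link the 100 kb before it to the 100 kb after it. A score below 0 marks a place that contacts cross less than expected, and a dip of at least 0.15 below its surroundings is called a minimum. Bins within 100 kb of a core's edge have no score, which left 65 of 85 bins on chr4 and 168 of 188 on chr2.

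Testis had 5 insulation minima at the 2 loci, 2 on chr4 and 3 on chr2. When distance alone set the expected count there were 12, and 2 of the 5 were found again within 10 kb, both on chr2. Neither chr4 minimum was found again within 10 kb, and the chr4 minima then lay in the bins that start at 107360001, 107650001 and 107680001. Of the 5 main minima, the lowest lay at chr4:107420001-107430000, between the end of Ndc1, which encodes a membrane nucleoporin that anchors the nuclear pore, and the listed start of Glis1, a zinc-finger transcription factor. Its score was -0.27 in WT1, -0.26 in WT2 and -0.25 in WT3 (mean -0.26 ± 0.012 SD, n = 3), so 16.6% fewer contacts crossed it than expected. The bin overlaps the annotated body of Glis1, whose listed start is 9.72 kb from its centre.

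The next lowest lay on chr2 at chr2:116880001-116890000, inside Tmco5, a gene named for its transmembrane and coiled-coil domains, 6.3 kb from its start. Scores there were -0.27, -0.24 and -0.25 in WT1, WT2 and WT3 (mean -0.25 ± 0.014 SD, n = 3). The boundary region came next, at the 10 kb bin that starts at chr4 107700001, directly left of the boundary interval. Its score was -0.26, -0.25 and -0.22 (mean -0.24 ± 0.019 SD, n = 3), or 15.4% fewer contacts than expected. This bin overlaps Dmrtb1, a transcription factor of the DM-domain family that acts in spermatogonia as they enter meiosis, and 1700047F07Rik.

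Shallower minima flanked Meis2, a homeobox transcription factor. One at chr2:115840001-115850000, beyond the end of the gene, scored -0.14, -0.18 and -0.16 (mean -0.16 ± 0.024 SD, n = 3). The other at chr2:116120001-116130000, 60.4 kb from the start of Meis2, scored -0.16, -0.14 and -0.16 (mean -0.15 ± 0.0091 SD, n = 3). Neither bin overlaps an annotated gene. The first of them was the least regular, since the dip around it in WT1 alone was only 0.013 deep and the nearest minimum of WT1 that met the limit lay 30 kb away. Each of the other 4 minima was found within 10 kb in all 3 libraries.

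**Figure D1:**
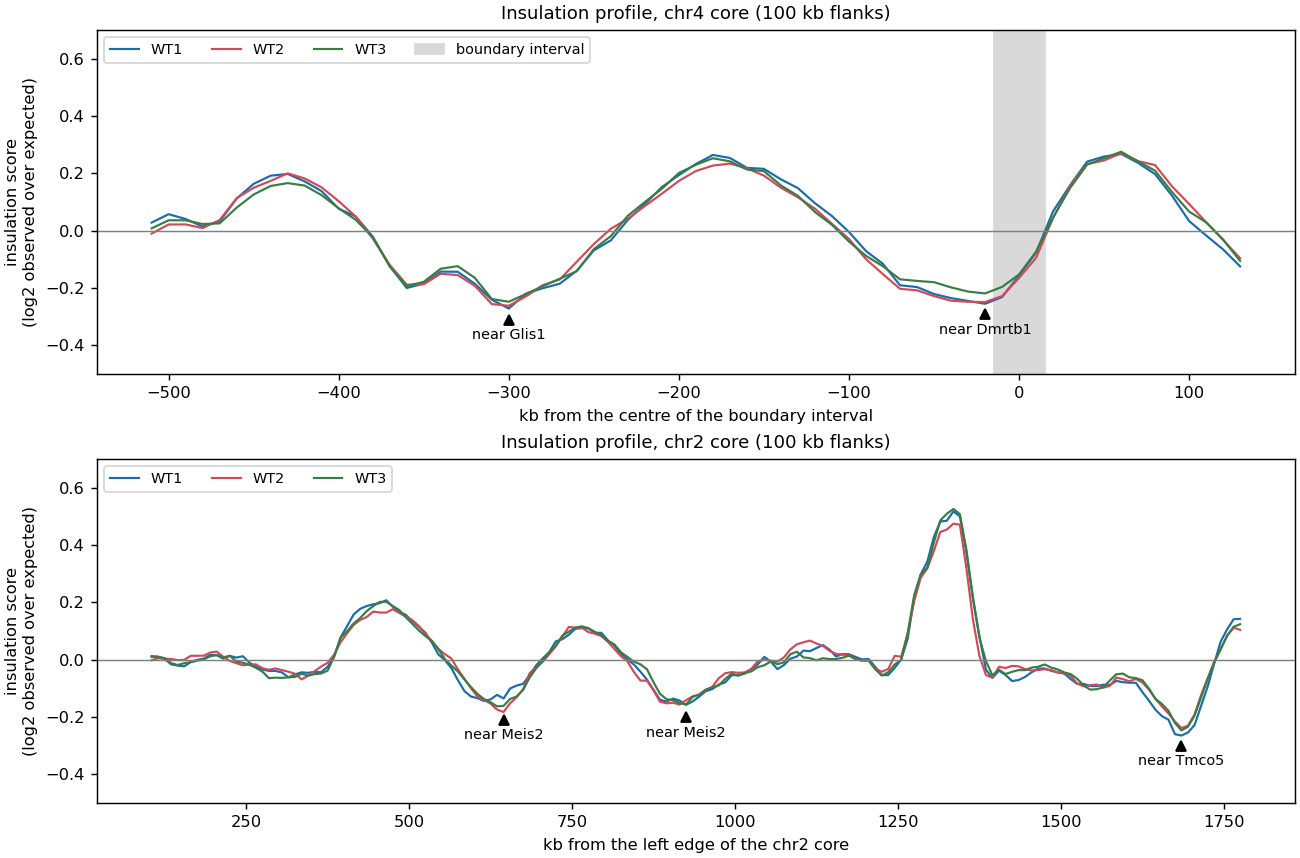
Insulation score of each 10 kb bin (log2 observed over expected contacts across it, 100 kb flanks) in the 3 wild-type libraries, with the chr4 core above and the chr2 core below. Triangles mark the 5 minima by the nearest coding gene and the grey band is the boundary interval. The 3 lines nearly coincide, and the chr4 minimum sits at the left edge of the interval while the score climbs above 0 to its right.

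The profiles were repeatable. Over bins, the insulation scores of any pair of libraries correlated at 0.992 to 0.994 on chr4 and at 0.987 to 0.991 on chr2, and the median SD over libraries was 0.014 and 0.010. These correlations describe maps of the same regions, in which neighbouring bins share contacts. Scores spanned -0.26 to 0.27 on chr4 and -0.25 to 0.51 on chr2. The highest chr4 bin, 107780001 to 107790000, overlaps the non-coding gene 4933424M12Rik and lies 80 kb right of the chr4 minimum, and the score rose from -0.24 to 0.27 over that distance. The highest chr2 bin, 116530001 to 116540000, lies in the gene-poor stretch next to bins of low coverage and scored 0.50 when the 4 bins below 25% of the median coverage were left out.

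Most bins departed from expectation by more than the spread between libraries. With edgeR's quasi-likelihood test and Benjamini-Hochberg adjustment over 233 bins, 87 scored above expected (37.3%) and 112 below (48.1%) at an adjusted p under 0.05. A call on its own therefore says little about a bin here, and depth separates bins better. On chr4, 34 of 65 bins were above and 28 below, and on chr2, 53 of 168 were above and 84 below. The 3 bins of the boundary interval, from left to right, scored -0.22 (adjusted p = 4.27e-16), -0.16 (adjusted p = 5.11e-14) and -0.08 (adjusted p = 2.38e-09).

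Listed coding starts near the minima held from few to many CG. The stretches of 250 bases before the RefSeq starts of Glis1 and Tmco5, coding genes with a start within 10 kb of a minimum's bin, and of Dmrtb1, the coding gene beside the boundary, are printed 5′ to 3′ (GRCm38.p6) with each CG in capitals, to let them be compared. Glis1 is at chr4:107434469-107434718 on the plus strand, Tmco5 at chr2:116878455-116878704 on the plus strand, and Dmrtb1, on the minus strand, has 2 listed starts. Its window a is chr4:107683590-107683839, and its window b, chr4:107684231-107684480, belongs to the start nearer to the boundary minimum.
Glis1: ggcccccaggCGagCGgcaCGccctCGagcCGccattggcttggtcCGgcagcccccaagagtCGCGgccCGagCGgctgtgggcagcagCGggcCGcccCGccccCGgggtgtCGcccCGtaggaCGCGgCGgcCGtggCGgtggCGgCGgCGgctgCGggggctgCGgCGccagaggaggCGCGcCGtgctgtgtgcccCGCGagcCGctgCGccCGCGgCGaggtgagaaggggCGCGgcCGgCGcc
Tmco5: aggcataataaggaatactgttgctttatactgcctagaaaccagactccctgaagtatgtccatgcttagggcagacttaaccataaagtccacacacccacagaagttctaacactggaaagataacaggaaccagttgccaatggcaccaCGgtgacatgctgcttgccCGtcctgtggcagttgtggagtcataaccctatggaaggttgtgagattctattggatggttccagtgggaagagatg
Dmrtb1, window a: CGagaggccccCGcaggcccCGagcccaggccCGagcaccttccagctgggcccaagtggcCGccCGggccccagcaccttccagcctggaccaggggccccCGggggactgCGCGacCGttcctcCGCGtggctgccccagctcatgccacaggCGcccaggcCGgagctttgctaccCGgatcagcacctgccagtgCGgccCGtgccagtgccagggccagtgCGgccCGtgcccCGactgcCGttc
Dmrtb1, window b: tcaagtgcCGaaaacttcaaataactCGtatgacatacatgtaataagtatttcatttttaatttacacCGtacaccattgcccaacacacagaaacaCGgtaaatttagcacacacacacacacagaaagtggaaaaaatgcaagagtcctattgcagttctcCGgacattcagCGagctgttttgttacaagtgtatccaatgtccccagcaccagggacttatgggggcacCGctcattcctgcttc
The Glis1 stretch holds 41 CG and has a GC content of 82.4%, and Tmco5 holds 2 with 46.8%. Dmrtb1 holds 21 CG with a GC content of 75.6% in window a and 7 with 42.4% in window b, so its count depends on the start used. Gm46866, whose start also lies within 10 kb of the bin of the Glis1 minimum, holds 15 with 60.8%. CG, which reads the same on both strands, occurs in 92.1% of the 32851 promoter windows of this length in the table, with a median of 6 per window. The letters of a window do not show which factors bind it.

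The boundary interval itself was an intermediate site. Scored as a whole, between the 100 kb on either side of its 30 kb, it gave -0.16 in WT1, -0.17 in WT2 and -0.16 in WT3 (mean -0.16 ± 0.0071 SD, n = 3), with 6322, 10992 and 8090 contacts crossing it. That is 10.7% below expected, lower in 3 of 3 libraries (two-sided exact sign-flip permutation test p = 0.25, the smallest that 3 libraries allow). Among 229 intervals of 30 kb in both cores it ranked 28 from the lowest (12.2% of the list), with ranks of 28, 29 and 29 in the single libraries and 27 without WT2. When distance alone set the expected count it ranked 72. Within chr4 it was number 19 of 63. Neighbouring intervals share bins, so these ranks describe a place on a curve.

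The strongest interval was chr4:107410001-107440000 at the Ndc1 and Glis1 border, at -0.30 ± 0.011 (SD, n = 3) or 18.9% below expected, ranking 1 of 229. The lowest on chr2, chr2:116870001-116900000 at Tmco5, had -0.26 ± 0.017 (SD, n = 3) and ranked 5. Sliding the 30 kb window showed where the boundary was deepest: it scored -0.24 when moved 20 kb or 30 kb to the left, -0.16 in place, -0.06 when moved 10 kb to the right and 0.30 at 50 kb to the right. The interval thus covered the right shoulder of the dip, whose floor lay over Dmrtb1 and the first part of 1700047F07Rik.

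Single bins gave the same order. The lowest bin of the interval was above the Glis1 minimum by 0.040, 0.034 and 0.052 in WT1, WT2 and WT3 (mean 0.042 ± 0.0092 SD, n = 3, higher in 3 of 3, exact sign-flip permutation p = 0.25). Choosing the bins on the other 2 libraries each time gave the same bins and values. The boundary's own minimum, 10 kb to the left, differed less: it was 0.020 ± 0.0084 above the Glis1 minimum (3 of 3 libraries, exact sign-flip permutation p = 0.25). Against the Tmco5 minimum its difference was 0.0088 ± 0.019 (SD, n = 3, exact sign-flip permutation p = 0.75), smaller than the spread over libraries. It was lower than the minima beside Meis2 by 0.081 ± 0.034 and 0.089 ± 0.024, in 3 of 3 libraries each (exact sign-flip permutation p = 0.25 for both).

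Rank depended on the scale of the contacts examined. With flanks of 50 kb the boundary minimum scored -0.30, -0.29 and -0.27 in the 3 libraries (mean -0.29 ± 0.017 SD) and ranked 1 of 253 bins, and it was also 1 with flanks of 30 kb and 70 kb. It ranked 4 of 233 at 100 kb, 12 of 213 at 150 kb and 18 of 193 at 200 kb, where its score was -0.15 ± 0.011. The Glis1 minimum went the other way, from rank 9 at 50 kb to 1 at 100 kb and 150 kb and 3 at 200 kb. The interval ranked 16 of 249 at 50 kb and 41 of 189 at 200 kb. The boundary was thus the deepest site for short contacts and one of several for long ones, while the Glis1 site kept a score between -0.22 and -0.27 at all 6 flanks.

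**Figure D2:**
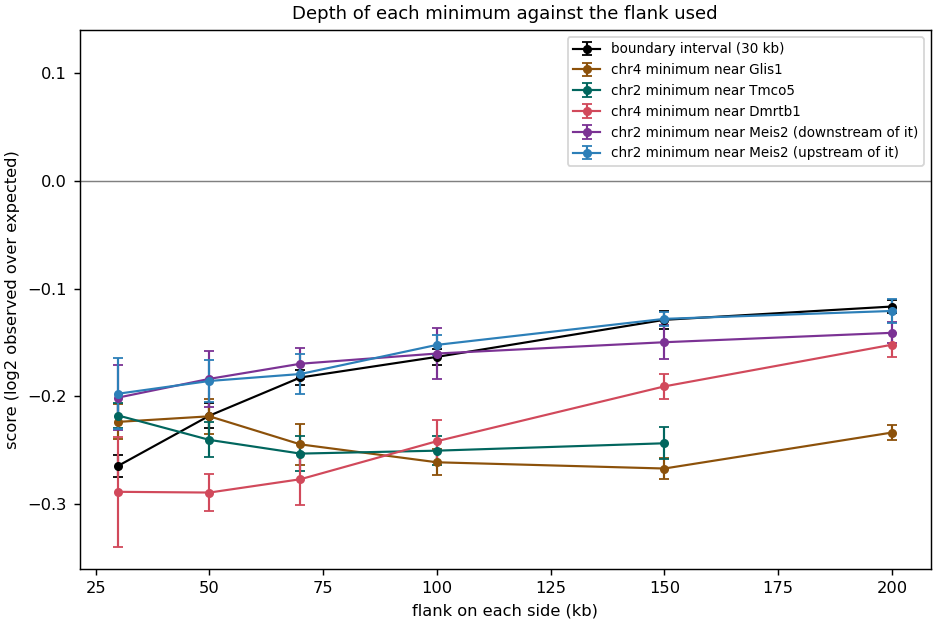
Score (log2 observed over expected contacts) of the 5 minima and of the 30 kb boundary interval against the flank used on each side (kb), as the mean of 3 libraries with SD bars. The minimum near Dmrtb1 is lowest at flanks up to 70 kb and rises to -0.15 at 200 kb, while the one near Glis1 stays between -0.22 and -0.27; the site near Tmco5 has no 200 kb value because it lies too close to the core's edge.

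How much the dip falls below its surroundings, its prominence, gave another order. The boundary minimum had the largest prominence of the mean profile, 0.49, with 0.52, 0.48 and 0.47 in the single libraries. The Glis1 minimum had 0.45, the Tmco5 minimum 0.37, and those beside Meis2 0.35 and 0.26. Prominence is measured from the lower of the 2 peaks beside a dip. For the boundary minimum that was the left peak, 0.25 at chr4 107540001 in the body of Glis1. To the right the score peaked at 0.27.

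Contacts that cross the interval were furthest below expected at short range. Between bins 40 to 100 kb apart on opposite sides, log2 observed over expected was -0.24, -0.21 and -0.21 in WT1, WT2 and WT3 (mean -0.22 ± 0.013 SD), from 1977, 3190 and 2605 contacts. Pairs at the same distances within a side stood at 0.0084 ± 0.0020. Crossing contacts were at -0.10 ± 0.020 for 100 to 200 kb, at -0.069 ± 0.010 for 200 to 300 kb at -0.024 ± 0.0057 for 300 to 500 kb and at -0.033 ± 0.0061 for 500 to 800 kb. In these 5 classes and each library the crossing value was below 0. Crossing minus within-side, the difference was -0.23 at 40 to 100 kb, -0.11, -0.099 and -0.050 in the next 3 classes, and -0.30 ± 0.043 at 500 to 800 kb. In that last class it came from the within-side pairs, all left of the boundary, which stood at 0.27 ± 0.042 over only 55 pairs. Against pairs of the same side the gap was thus not smallest at long range.

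Directionality changed at the boundary. It is the log2 ratio of observed to expected contacts with the next 100 kb to the right minus that with the 100 kb to the left, so a bin at the start of a domain is positive. Averaged over 50 kb it was -0.098, -0.084 and -0.086 left of the boundary minimum and 0.40, 0.37 and 0.33 right of it. The step, 0.46 ± 0.039 (SD, n = 3), was close to that at Tmco5 (0.42 ± 0.034) and larger than at Glis1 (0.20 ± 0.038) and beside Meis2 (0.22 ± 0.048 and 0.17 ± 0.0066). Measured on either side of the 30 kb interval itself, the step was smaller, 0.29, 0.28 and 0.29 (mean 0.29 ± 0.0065), which is below that at Tmco5. These steps were not tested against each other. At both positions most of the step came from the right side.

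**Figure D3:**
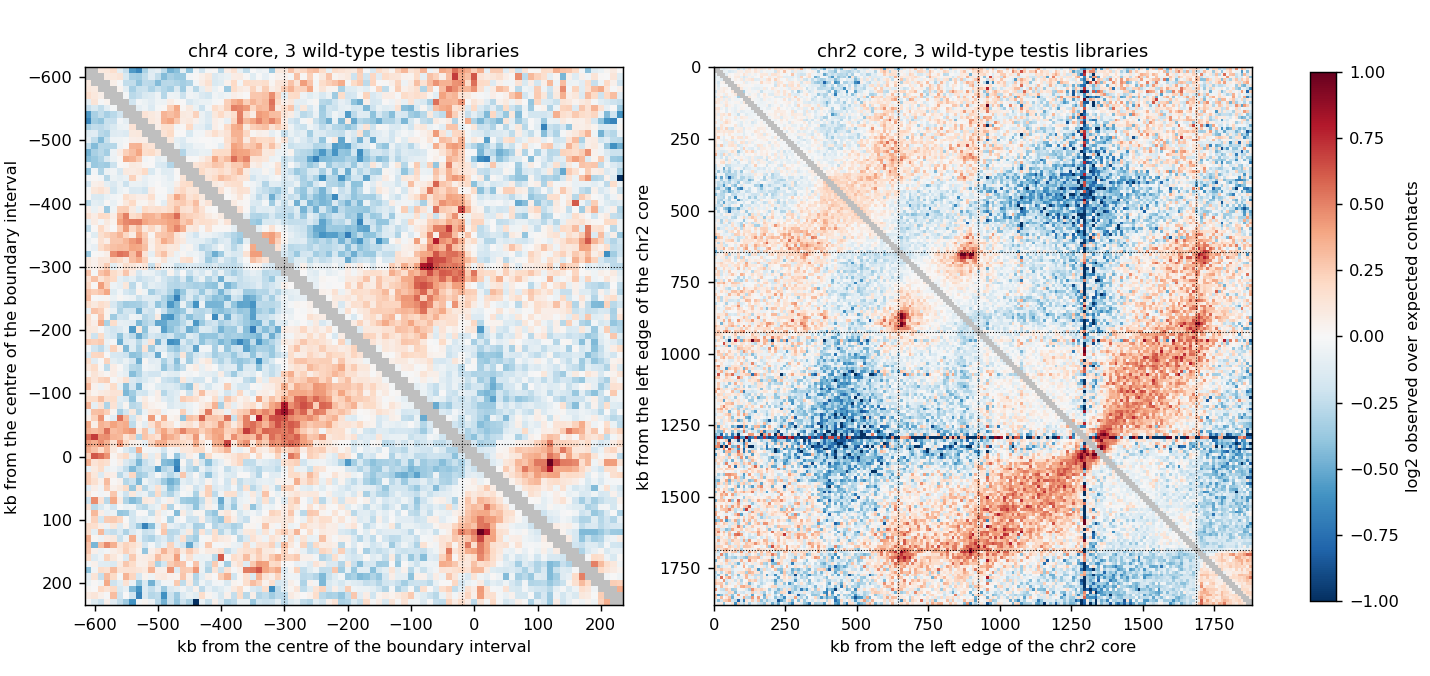
Log2 observed over expected contacts (red above, blue below expected) for each pair of 10 kb bins, summed over the 3 libraries with 0.5 added to both sums. Left, the chr4 core in kb from the centre of the boundary interval; right, the chr2 core in kb from its left edge. Dotted lines mark the 5 minima and grey marks pairs under 20 kb apart. Blue squares lie between neighbouring stretches of chr4, red spots lie near crossings with minima, and the thin noisy lines on chr2 are bins of low coverage.

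The minima divided each core into stretches. On chr4 the first, 107.11 to 107.42 Mb, holds 9 coding genes, among them Dio1, which encodes a thyroid hormone deiodinase, Hspb11, a part of the intraflagellar transport machinery, and Ndc1. The second, 107.43 to 107.70 Mb, holds Glis1, the predicted gene Gm46866 and Dmrtb1. The third, 107.71 to 107.96 Mb, holds Lrp8, a receptor for reelin and apolipoprotein E, Magoh, a core part of the exon junction complex, Czib, and Cpt2, a mitochondrial enzyme of fatty acid oxidation.

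Contacts within the 3 chr4 stretches were above expected by log2 0.040 ± 0.0022, 0.078 ± 0.0075 and 0.042 ± 0.0036 (SD, n = 3). Between stretches 1 and 2 they were below it, at -0.12, -0.11 and -0.11 in WT1, WT2 and WT3. Stretches 2 and 3 meet at the boundary minimum, and the boundary interval lies inside stretch 3. Between these 2 stretches contacts were depleted to a similar degree, at -0.11, -0.11 and -0.092 (mean -0.10 ± 0.010). Stretches 1 and 3, which do not touch, were nearer to expected at -0.028 ± 0.0086. Over whole blocks the depletion across the boundary minimum was thus close to that across the Glis1 border. Minima and blocks come from the same counts, so these block values describe the division.

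On chr2 the stretches hold BC052040, Meis2, the gene-poor region up to Tmco5, and the end of Tmco5 with what follows it. Within them contacts were at 0.029 ± 0.0022, 0.020 ± 0.0065, 0.061 ± 0.0047 and 0.13 ± 0.0057. The lowest block lay between stretches 3 and 4, across the Tmco5 minimum, at -0.19, -0.20 and -0.18 (mean -0.19 ± 0.012). With iterative correction of the map it was -0.060 and no longer the lowest, since stretches 2 and 3 stood at -0.14 and stretches 1 and 3 at -0.14. The Meis2 stretch and stretch 4, with the 750 kb of stretch 3 between them, stood above expected in each library, at 0.16, 0.17 and 0.18 (mean 0.17 ± 0.0098, 1.12 times expected); it was 0.26 with iterative correction and 0.37 when distance alone set the expected count. BC052040 with Meis2 was close to 0 at -0.017 ± 0.0038. That block turned to 0.28 when distance alone set the expected count, so its place relative to the chr4 blocks depends on the expected model.

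Single pairs of bins showed where contacts concentrated. Of 19231 pairs with a mean of at least 10 contacts, 1186 were above expected (6.17%) and 776 below (4.04%) with edgeR's quasi-likelihood test at an adjusted p under 0.05. Without adjustment 2334 and 2194 pairs had a p under 0.05. These counts depended on the tool and the expected model: DESeq2 called 340 and 76, limma called 0 and 0 (1993 and 1378 at an unadjusted p under 0.05), and edgeR with distance alone as expectation called 4750 and 3319. On chr4 the counts were 354 and 320 of 3481 pairs, and on chr2 they were 832 and 456 of 15750. Leaving out WT2 gave 724 above and 378 below, and leaving out WT3 gave 742 and 425. Across the boundary at distances of 20 to 100 kb, 11 of 21 pairs were below expected and 0 above, and at 100 to 200 kb 23 of 115 were below and 5 above. In the chr4 core as a whole 21.1% of pairs at 20 to 100 kb and 16.9% at 100 to 200 kb were below. Among crossing pairs the share below was higher in the nearer class (52.4%) and closer to the core's in the next (20%). Pairs above expected made up 18.9% and 16.3% of the core's pairs in these classes, against 0% and 4.35% of the crossing pairs. The differences of shares were not tested.

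The highest chr4 pair joined the last bin of the boundary interval with chr4:107840001-107850000 in the body of Lrp8, 110 kb to the right. It had 193, 395 and 270 contacts where 89.5, 189 and 119 were expected in WT1, WT2 and WT3. Log2 observed over expected was 1.12 ± 0.059 (SD, n = 3; edgeR quasi-likelihood adjusted p = 7.97e-25), and the pairs around it, in a square of 5 by 5 bins, stood at 0.44 ± 0.014. The bin right of the interval met the same part of Lrp8 at 0.79 ± 0.035, where the pairs around it stood at 0.40 ± 0.035. The right end of the boundary region thus met this bin of Lrp8 more than expected, while its left end was the floor of the dip.

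In the Glis1 and Dmrtb1 stretch the bin of the Glis1 minimum met chr4:107650001-107660000, 230 kb away and between the genes Glis1 and Dmrtb1. That pair had 83, 143 and 106 contacts against 47.4, 77.0 and 58.3 expected, which is 0.85 ± 0.043 (adjusted p = 1.48e-11 with edgeR's quasi-likelihood test). Its neighbours 220 kb and 240 kb apart stood at 0.80 ± 0.10 and 0.72 ± 0.12. The lowest chr4 pairs joined bins of Lrrc42, Hspb11 or Ndc1 with the body of Glis1 across the Glis1 minimum, at -0.74 ± 0.32, -0.63 ± 0.21 and -0.58 ± 0.096, and WT2 was the least depleted library in each.

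On chr2 the highest pairs shared 1 bin, chr2:115850001-115860000, next to the minimum beyond the end of Meis2. It met chr2:116060001-116070000, which holds the start of Meis2, in 144, 215 and 151 contacts against 60.5, 86.4 and 73.0 expected. That is 1.21 ± 0.14 (SD, n = 3; edgeR quasi-likelihood adjusted p = 1.96e-20). The same shared bin with bins 220, 240 and 250 kb away stood at 1.14 ± 0.084, 1.10 ± 0.13 and 0.99 ± 0.022. The left end of the Meis2 stretch thus met bins 20 to 60 kb from the minimum at its right end at 1.98 to 2.31 times the expected count. Over all pairs within the stretch, these included, contacts stood only log2 0.020 above expected.

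One chr2 pair reached farther. Bins chr2:116090001-116100000, upstream of Meis2, and chr2:116890001-116900000 at Tmco5 are 800 kb apart and had 35, 52 and 44 contacts against 18.2, 20.5 and 22.0 expected. Log2 observed over expected was 0.94, 1.35 and 1.00 (mean 1.09 ± 0.22; edgeR quasi-likelihood adjusted p = 4.86e-08). Both bins lie just outside the gene-poor stretch, 1 in the Meis2 stretch and 1 in stretch 4, at 30 kb and 10 kb from the minima that bound it. The lowest chr2 pairs stood between -0.59 and -0.57, and 1 of them, joining the non-coding gene G630016G05Rik beside Meis2 with the gene-poor stretch, had an adjusted p of 0.063 with edgeR without WT2.

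**Figure D4:**
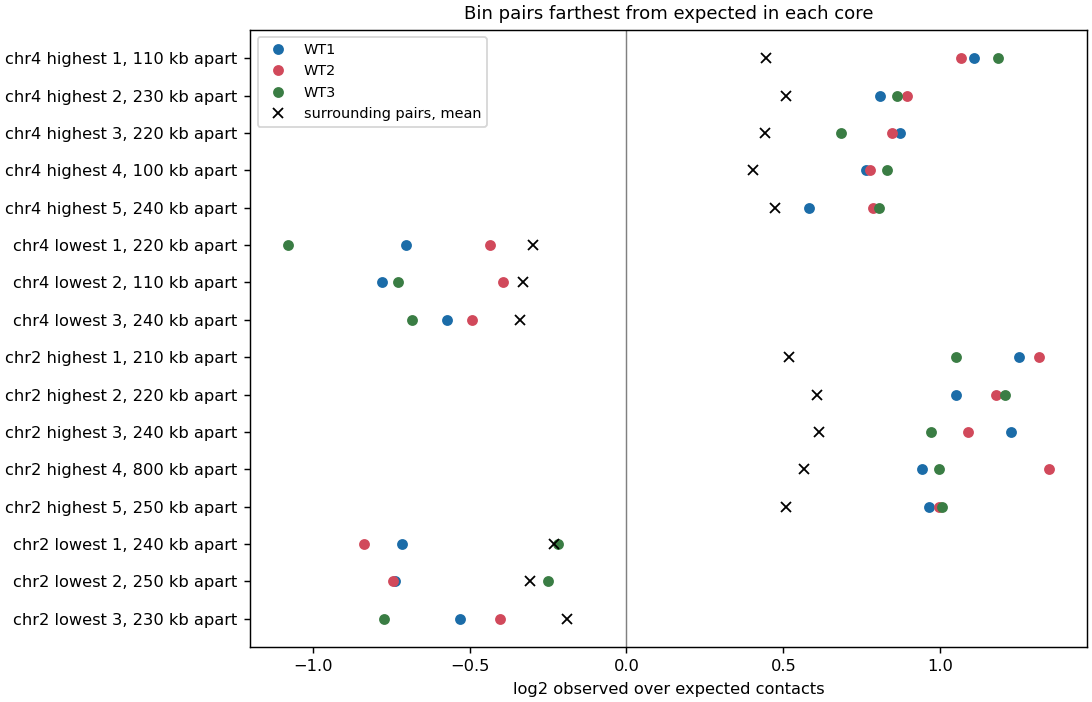
Log2 observed over expected contacts of the 5 highest and 3 lowest pairs of bins at least 100 kb apart in each core, among those past the threshold with at least 30 contacts in every library. Coloured points are the 3 libraries and crosses the mean of the surrounding pairs. In each of the 10 high pairs the libraries lie above the surroundings, and in each of the 6 low pairs they lie below 0.

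Pairs above expected ended near a minimum more often than the pairs tested as a whole. Of the 908 pairs at least 100 kb apart that were above expected, 184 had an end within 10 kb of a minimum (20.3%), against 10.6% of all 17154 pairs tested at those distances and 3.39% of the 531 below expected. The share was 26.9% on chr4, against 13.6% of all its pairs tested, and 18.0% on chr2, against 10.0%. Of the 10 highest named pairs, 8 had such an end, and the 2 others start in the interval or next to it. Several of the 8 share a bin or adjoin each other. These are counts over pairs that share bins, given as a description. Minima and pairs also come from the same counts. The score of a bin leaves out contacts of the bin itself, so pairs that end in a minimum's bin do not enter its score. The low share among pairs below expected is therefore partly fixed by the definition.

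Contacts between bins that hold the start of a coding gene were examined on chr4, and those with Dmrtb1 stood highest. Of 53 such pairs, 13 were above expected and 0 below by edgeR's quasi-likelihood test at an adjusted p under 0.05, where 10.2% of all chr4 pairs tested were above. Their median log2 ratio was 0.14, against -0.039 over all chr4 pairs tested. The pairs with Dmrtb1 made up 7 of the 13, out of 10 tested, and among the other 43 pairs 6 were above expected (14%), a share near that of all chr4 pairs. Leaving out WT2 gave 9 pairs above expected, and leaving out WT3 gave 8. Dmrtb1 with Ndc1 had 48, 93 and 77 contacts and stood at 0.68 ± 0.20, and Dmrtb1 with Glis1 stood at 0.61 ± 0.11. The areas around them were raised as well, at 0.36 ± 0.027 for Ndc1 and 0.49 ± 0.031 for Glis1. Of the 28 pairs of starts on opposite sides of the boundary, 3 were above expected (10.7%), against 1.44% of all 1318 crossing pairs tested. Of these 3, 2 share the Dmrtb1 bin, which met Magoh, 190 kb away, at 0.53 ± 0.16 and Czib, 200 kb away, at 0.39 ± 0.15. The pairs around these 2 stood at 0.19 ± 0.027 and 0.19 ± 0.051. None of the shares was tested against another, nor any pair against its surroundings. On chr2, 0 of 3 such pairs were called.

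Contacts fell with distance in nearly the same way at both loci. The slope of log contacts on log distance from 20 to 500 kb was -0.857, -0.849 and -0.867 on chr4 in WT1, WT2 and WT3, and -0.854, -0.867 and -0.870 on chr2. The difference, chr4 minus chr2, was 0.0060 ± 0.010 (SD, n = 3, exact sign-flip permutation p = 0.5), smaller than its spread, and without WT2 it was 0.000302. The fall of these raw counts was steeper from 20 to 100 kb (-1.04 at both) than from 100 to 500 kb (-0.77 and -0.76). Once counts were divided by the visibility of the bins, the difference was 0.0035 ± 0.0088 from 20 to 500 kb. It was then -0.030 ± 0.0089 from 20 to 100 kb and -0.025 ± 0.023 from 100 to 500 kb. In each of these classes it was below 0 in 3 of 3 libraries (exact sign-flip permutation p = 0.25 for both). In the chr4 core 28.1% of contacts lay within a bin and 9.56% between bins 100 to 200 kb apart, and in the chr2 core the shares were 21.5% and 9.02%. These shares cannot be compared directly, because the chr2 core is longer. Contacts 500 kb or more apart made up 2.96% in the chr4 core and 14.6% in the chr2 core.

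On the 2 sides of the boundary the slopes from 20 to 200 kb were -0.94 ± 0.019 on the left and -1.03 ± 0.039 on the right. Their difference, left minus right, was 0.078, 0.13 and 0.059 (mean 0.090 ± 0.039, 3 of 3 libraries above 0, exact sign-flip permutation p = 0.25), and without WT2 it was 0.0685. It fell to 0.017 ± 0.014 once counts were divided by the visibility of the bins, and to 0.0065 ± 0.019 from 20 to 100 kb. The right side reaches only 220 kb into the core, so few pairs carry its longest distances.

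**Figure D5:**
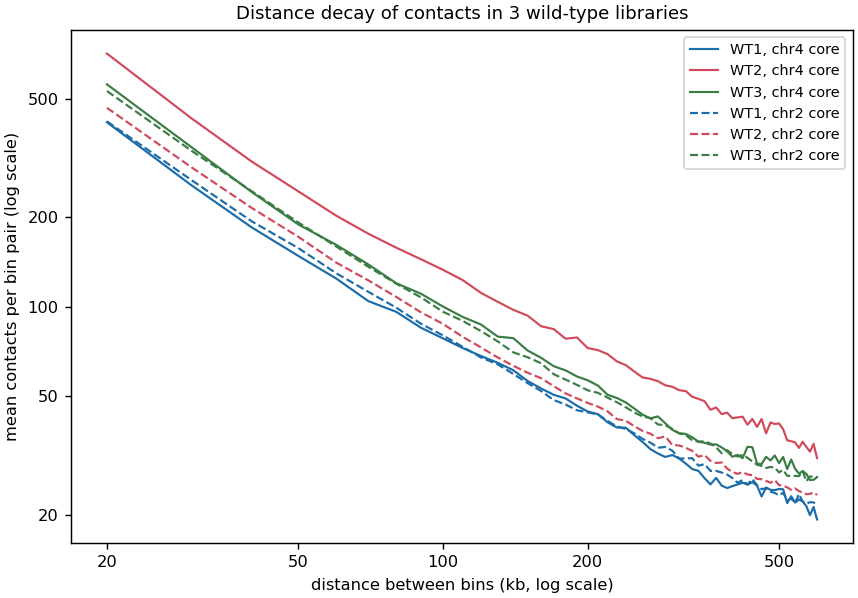
Mean contacts per pair of bins against the distance between them from 20 to 600 kb, both on log scales, in each wild-type library for the chr4 core (solid) and the chr2 core (dashed). The 6 lines run nearly parallel, and the chr4 line of WT2 lies above the others.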

How the data were processed

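Contact counts per pair of 10 kb bins were deposited by the authors as whole numbers without normalization, with empty pairs left out. Per the labels, libraries were made with the Arima Hi-C kit and Agilent SureSelect enrichment, and the build is mm10 per the submitters' processing notes. Aligner, filters and binning are not given in the sources used here. Uneven enrichment by probes enters the counts directly, so bin visibility was fitted.

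Expected contacts were fitted per library and core from bin visibility and distance (pairs 20 kb or more apart, 100 rounds, numpy 2.4.6). The 3 libraries are separate samples of 1 group; nothing says that they came from separate animals, so the spread may be technical in part. Sign-flip tests are two-sided and exact. Counts of pairs and bins against expected contacts were tested with edgeR 4.0.16 in R 4.3.3, as the quasi-likelihood F test with an intercept only and log expected contacts as offset. It was computed from edgeR's fit by hand, because its own function refuses a design of 1 column. DESeq2 1.42.0 and limma 3.58.1 served as alternatives.

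On simulated maps a border planted at log2 -0.51 was found in its own bin as the only minimum in each core. Its scores were -0.35 (chr4) and -0.33 (chr2), so the score understated the depth of this border. The border was planted at the same strength at all distances. Real contacts across the interval were furthest below expected at short range, so the understatement need not carry over to the real minima. With none planted, 0 minima were found. Over 19231 simulated pairs, the edgeR test found 42 of 50 at 0.5 times, 28 of 50 at 0.67 times, 35 of 50 at 1.5 times and 49 of 50 at 2 times expected, with 1 false call. These counts were drawn from the same expected contacts that served as offset. Error in the fitted expectation therefore could not produce false calls here, and the count of false calls does not carry over to the real maps.

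Named were every minimum, the stretches between them, every coding gene of the cores, and in each core the 5 highest and 3 lowest pairs at least 100 kb apart among those past an adjusted p of 0.05 with at least 30 contacts in each library. Pairs of coding starts and the printed promoters (RefSeq table, GRCm38.p6) were chosen later. Loci, boundary and lists were chosen with earlier results of these data known. Libraries of the other genotype, RNA and ChIP data were not used here.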

Additional observations from a re-analysis of the deposited data

How the results depend on the processing

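No paired analysis was possible because only 1 genotype is described. The interval score stayed below 0 under every alternative, and the 5 minima kept their number without each library in turn. The rank of the interval moved from 28 to 16, 39 and 41 with flanks of 50, 150 and 200 kb, to 72 with distance decay only, 32 with the chr2 decay and 38 with iterative correction; it was 27 to 28 without 1 library. Flanks of 30 and 70 kb, chosen after seeing the data, gave ranks of 10 and 25. Minima numbered 8 with 50 kb flanks and 12 with distance decay only. Of the 5 main minima, 2 were found again with distance decay only, both on chr2, and neither of the chr4 minima was (the minimum beyond the end of Meis2 turned to 0.15 there). All but that at Tmco5 were found again with iterative correction and with 150 kb flanks. The interval's lowest bin was 0.028 below the strongest other minimum (-0.028, then at another site, chr4 107870001) with 50 kb flanks. On raw counts the decay difference between loci turned to -0.0048 at 20 to 100 kb and -0.018 at 100 to 500 kb. Pairs above and below expected numbered 340 and 76 with DESeq2, 0 and 0 with limma (1993 and 1378 at an unadjusted p under 0.05), 4750 and 3319 with distance decay only, and 724 to 856 and 378 to 546 without 1 library. Pairs of coding starts above expected numbered 8 to 11 without 1 library. With distance decay only, the BC052040 and Meis2 block turned to 0.28. With iterative correction, the block across Tmco5 was -0.060, no longer the lowest, and that of Meis2 with the gene-poor stretch -0.14. The causes of these changes were not tested. Alternatives for blocks, single minima, named pairs, starts and low-coverage bins were added after seeing the data. Depth limits single pairs: their log2 ratios correlated at 0.40 to 0.47 between libraries on chr4 and 0.25 to 0.28 on chr2.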

Other observations

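A second dip of the chr4 profile lay at the left end of Ndc1. The bin at chr4 107360001 scored -0.19 ± 0.0058 (SD, n = 3), and it counted as a minimum of its own with flanks of 50 kb and 70 kb but not with 100 kb. Over the 6 scored bins of Ndc1 the mean score was -0.18 ± 0.0083, close to that over Dmrtb1 (-0.23 ± 0.022 over 4 bins). Over the 22 bins of Glis1 it was 0.038 ± 0.0044, although its start lay at -0.22. Dio1 and Yipf1 started in bins above 0, at 0.17 ± 0.013 and 0.14 ± 0.014, as did Lrp8 at 0.21 ± 0.016.

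On chr4, starts of coding genes were not low as a group. Of the 9 scored chr4 bins with a coding start, 3 scored below 0 (33.3%), against 26 of 56 bins without one (46.4%), and the medians were 0.031 and 0.024. The few chr2 bins went the other way. There 2 of 3 bins with a coding start scored below 0, against 98 of 165 without one (59.4%), with medians of -0.059 and -0.016. These values were not tested.

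The largest steps of directionality lay inside the gene-poor stretch of chr2 and not at its minima. They were 0.53 ± 0.066 at chr2 116450001 and 0.51 ± 0.052 at chr2 116590001 (SD, n = 3), on both sides of the bins of low coverage at 116480001, 116490001 and 116520001. The bin with the highest score of either core, 0.51 ± 0.027, lies between these steps, and its mean visibility was 0.355, where 1 is the average bin of the core. The part of low coverage in these steps was not tested.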
